A study of Mus musculus with 24 samples.

Results

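The genes described are 8 receptors for extracellular nucleotides and adenosine and 1 enzyme of the same system, measured as mRNA in mouse macrophages. They are the ATP-gated channels P2rx4 and P2rx7, the G protein-coupled nucleotide receptors P2ry2, P2ry6, P2ry13 and P2ry14, the adenosine receptors Adora2a and Adora2b, and the ectonucleotidase Entpd1. All 9 were taken by gene symbol, 1 gene identifier each, from the 22996 genes of the primary macrophage table and the 54380 genes of the J774.1 table. They were chosen by symbol, but selected on a measured value as well: the TPM of P2rx4, which differed between Ctbp2 siRNA and Ctbp1 siRNA under lipopolysaccharide (LPS). That contrast therefore carries no test for any of the 9 genes, and P2rx4 is only described wherever those libraries enter the difference. Tests of P2rx4 in other BMDM libraries still use a spread that was estimated with those libraries included.

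The study asked what the co-repressors CtBP1 and CtBP2, which are brought to genes by transcription factors, do to inflammatory gene expression. It sequenced polyadenylated RNA in 24 libraries, 8 groups of 3. Bone marrow-derived macrophages (BMDMs) came from male C57BL6/N mice aged 6 to 12 weeks and were differentiated to day 6 with L929 cell supernatant. They were transfected with a control siRNA or one against Ctbp1 or Ctbp2 mRNA, and then given vehicle (PBS) or 100 ng/ml LPS, a bacterial cell wall component, for 4 h. Every BMDM library, controls included, thus comes from transfected cells. J774.1, a macrophage line from a female BALB/c mouse, was wildtype or labelled Ctbp1/2 double knockout, and both groups received the same LPS for 4 h, so this line has no vehicle group. The labels do not say whether the knockout is 1 clone, and they call the replicates biological without naming separate cultures or animals. Every p here is relative to the spread among these samples, which may be technical.

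ATP, UTP, UDP and UDP-glucose that leave stressed or activated cells bind P2 receptors on macrophages: P2X receptors open as cation channels, and P2Y receptors signal through G proteins. Entpd1, known as CD39, removes phosphates from ATP and ADP at the cell surface, and further breakdown gives adenosine. Adenosine acts on Adora2a and Adora2b, which raise cyclic AMP and are known for dampening inflammatory output in macrophages.

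Promoters were looked up in RefSeq (GRCm38.p6), where 7 of the 9 genes were matched, with 13 start sites in all; Adora2a and P2ry6 were not matched. The 250 bases before the first start site listed are shown, 5′ to 3′, for Adora2b and P2rx7, the genes with an entry that moved most in each direction with LPS, and for P2rx4, the gene next to P2rx7 on chromosome 5. P2rx4 was added after its values were seen. All 3 lie on the plus strand, at chr11:62248734-62248983, chr5:122643677-122643926 and chr5:122707294-122707543. Capitals mark matches, on either strand, to any of 7 motifs.
Adora2b: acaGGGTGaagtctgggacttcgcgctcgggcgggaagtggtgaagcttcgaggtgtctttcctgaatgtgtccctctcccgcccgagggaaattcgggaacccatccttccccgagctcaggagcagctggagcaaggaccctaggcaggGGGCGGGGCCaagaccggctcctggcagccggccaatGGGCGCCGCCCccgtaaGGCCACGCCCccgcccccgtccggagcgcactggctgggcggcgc
P2rx7: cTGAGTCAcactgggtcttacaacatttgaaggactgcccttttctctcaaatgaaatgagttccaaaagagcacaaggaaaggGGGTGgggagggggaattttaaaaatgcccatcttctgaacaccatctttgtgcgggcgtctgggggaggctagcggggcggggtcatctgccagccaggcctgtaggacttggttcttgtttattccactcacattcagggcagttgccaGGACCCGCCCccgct
P2rx4: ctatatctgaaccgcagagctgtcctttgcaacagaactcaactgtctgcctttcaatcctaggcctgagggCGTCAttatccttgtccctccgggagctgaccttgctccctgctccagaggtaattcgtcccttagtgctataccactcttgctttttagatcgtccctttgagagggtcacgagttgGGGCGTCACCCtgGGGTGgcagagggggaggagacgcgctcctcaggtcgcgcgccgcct
The motifs searched were the NF-kB site (GGG and CC with any 5 bases between them), the cyclic AMP response element TGACGTCA and its core TGACG, the AP-1 site TGANTCA, the interferon response core (GAAA, any 2 bases, GAAA), the PU.1 core GAGGAAGT and the KLF site CACCC. Adora2b held 4 NF-kB matches, of which 2 overlap on opposite strands in GGGCGCCGCCC, and 1 KLF match. P2rx7 held 1 NF-kB match, 1 AP-1 match and 1 KLF match. P2rx4 held 2 NF-kB matches and 1 TGACG match that all overlap, together with 1 KLF match, in GGGCGTCACCC, and 1 further match each to TGACG and CACCC. Among all 32851 RefSeq mouse promoters of 300 bases (250 before and 50 after the start), the NF-kB letters occurred in 50.8%, TGACG in 20.8%, CACCC in 57.5% and the AP-1 letters in 7.81%. Of the 13 windows of these genes, 6 held the NF-kB letters, 9 held CACCC, 3 held TGACG and 3 the AP-1 letters. The PU.1 letters were in 1 window (3.2% of all promoters), and TGACGTCA (1.79%) and the interferon response letters (3.44%) in 0. These matches describe letters in a window and are not measured binding sites.

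Levels are given in TPM, the deposited length-corrected share of a gene in a library's RNA, which keeps no sequencing depth, so depth and counting error per library are unknown. Each BMDM library had 11548 to 12259 genes at 1 TPM or more, and each J774.1 library 11581 to 11823. All 8 macrophage markers checked were found in BMDMs, summing to 12458 to 15783 TPM, and in J774.1 cells they summed to 2392 to 3124 TPM, with Mertk at 0 in the wildtype. In BMDMs, markers of lymphocytes, dendritic cells, mast cells and stromal cells each summed to at most 1.99 TPM, and 9 neutrophil markers to 62.5 to 171 TPM. The siRNAs lowered their targets: Ctbp1 from 123 ± 7.33 to 50.8 ± 4.46 TPM (SD, n = 3) and Ctbp2 from 38.2 ± 1.82 to 12.1 ± 1.70 TPM in LPS (adjusted p = 2.8e-08 and 6.67e-08). In the library group labelled double knockout, Ctbp1 stood at 19.9 ± 3.30 against 161 ± 3.81 TPM, while Ctbp2 stood at 63.1 ± 1.38 against 78.2 ± 3.52 TPM (adjusted p = 1.64e-06 and 0.00121). A gene's mRNA level alone does not show whether its coding sequence was disrupted. In bulk RNA, fewer cells of a type and less RNA per cell cannot be told apart.

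**Figure D1:**
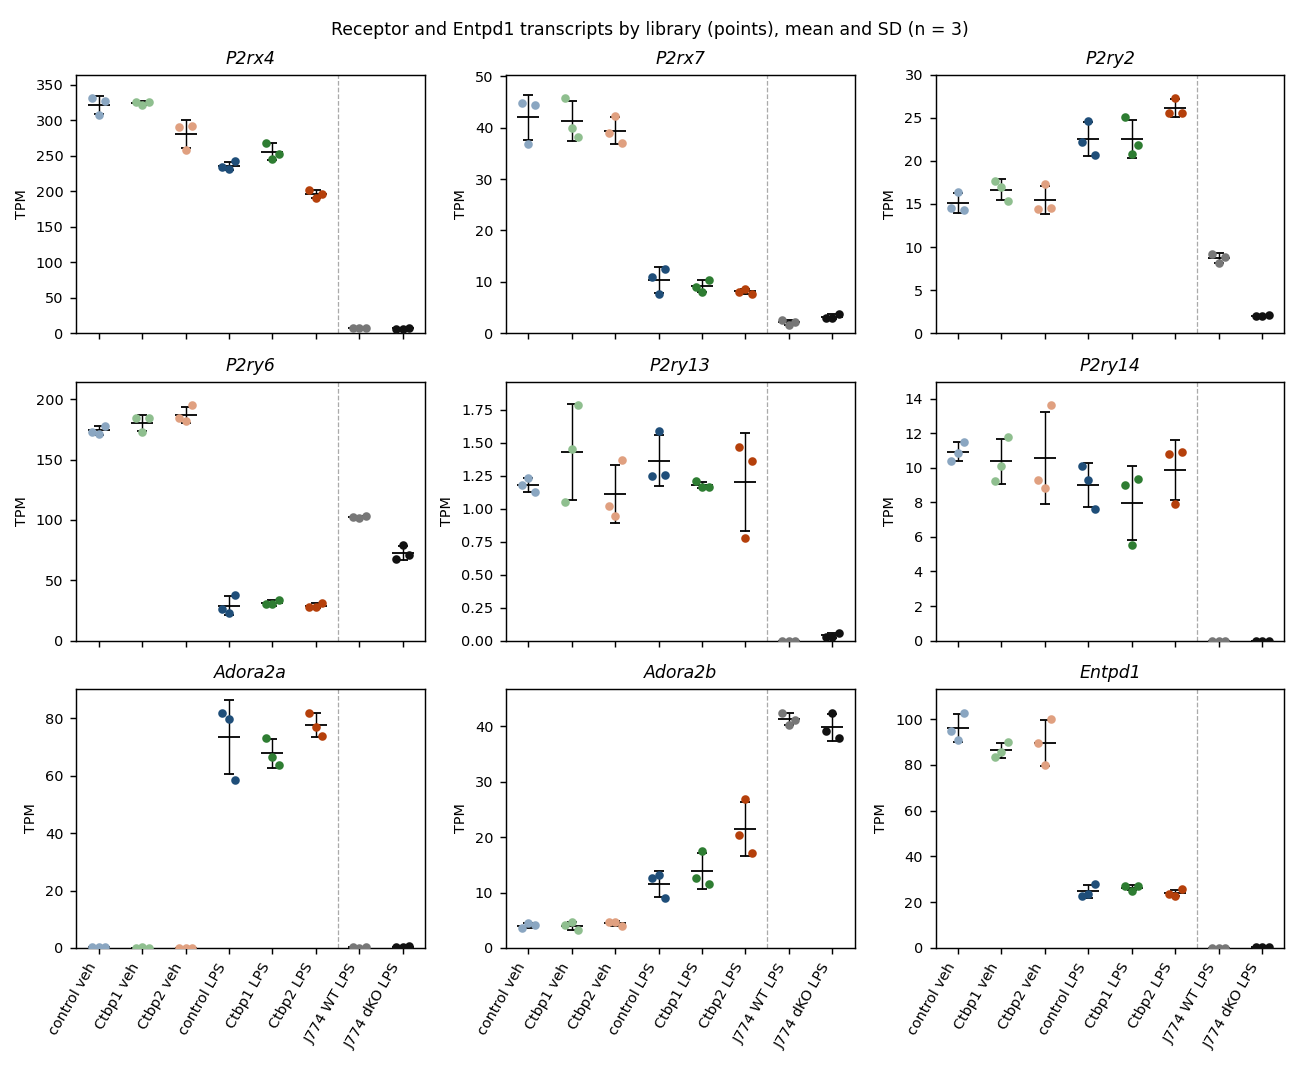
TPM of the 9 genes in each library (points), with the mean and SD of 3 libraries per group; BMDM groups stand left of the dashed line and J774.1 groups right of it, and "veh" is vehicle. P2rx7, P2ry6 and Entpd1 are low and Adora2a and Adora2b high in the LPS groups of BMDMs, and P2rx4 is lowest there with Ctbp2 siRNA.

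In BMDMs with control siRNA and vehicle, P2rx4 was the most abundant of the 9 transcripts, at 322 ± 12.7 TPM (SD, n = 3 here and below). P2ry6, the UDP receptor, followed at 174 ± 3.61 TPM and Entpd1 at 96.2 ± 6.07 TPM. P2rx7, the channel that high ATP opens upstream of inflammasome activation, was at 42.0 ± 4.41 TPM. The ATP and UTP receptor P2ry2 was at 15.1 ± 1.14 TPM and the UDP-glucose receptor P2ry14 at 10.9 ± 0.547 TPM. At the low end were Adora2b (4.05 ± 0.450 TPM), the ADP receptor P2ry13 (1.18 ± 0.0529 TPM) and Adora2a (0.191 ± 0.0436 TPM). No neighbours in this order overlapped in range.

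The first comparison asked what LPS changes in control siRNA BMDMs. Both adenosine receptors and P2ry2 rose, and P2rx7, P2ry6, Entpd1 and P2rx4 fell. P2ry13 and P2ry14 did not pass the test. That is 3 higher and 4 lower of 9 genes, where 72.2% of all 12146 genes tested were called, 18.6% higher and 53.6% lower. Adora2a, 1 of the 3, was testable only through its LPS libraries, and its call is not read as a result. LPS moved most genes at this threshold, so the share called (7 of 9) is near the background, and the sizes and directions below are what is described. The median log2 fold change of all genes tested was -0.29, and that of these 9 genes -0.26. Median-of-ratios scaling, which centres that median nearer 0, changed the split over all genes from 2258 higher and 6514 lower to 4064 higher and 3965 lower. Tests were made with limma on log2(TPM + 1) with a Benjamini-Hochberg adjusted p under 0.05 over all genes tested, and such fold changes understate the change of low transcripts.

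Adora2a, the adenosine receptor most tied to raised cyclic AMP in immune cells, went from near 0 to the second most abundant of the 9. Its vehicle libraries with control siRNA read 0.160, 0.241 and 0.173 TPM and its LPS libraries 82.0, 79.7 and 58.6 TPM. All 3 LPS libraries stood far above every vehicle library, and control LPS replicate 4 was the lowest of them. Adora2a reached the mean of 1 TPM needed for a test only through LPS libraries. Its call is therefore not read as a result, and the library values are what is described. The log2 fold change was 5.95 (SE 0.111), and the authors' deposited table gives 9.0. With pseudocounts of 0.1 and 5 the value was 7.97 and 3.90.

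Adora2b, which needs more adenosine for activation than Adora2a, read 3.55, 4.43 and 4.16 TPM in vehicle and 12.5, 13.2 and 8.94 TPM in LPS. The groups did not overlap, and replicate 4 was again the lowest LPS library. Adora2b rose by 1.30 on the log2 scale (SE 0.179, adjusted p = 6.45e-06), and by 0.86 with a pseudocount of 5. Adora2a, the scarcer adenosine receptor in vehicle, was thus the more abundant in LPS, at 73.4 ± 12.9 against 11.6 ± 2.28 TPM.

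Among the P2X channels, P2rx7 read 44.8, 36.9 and 44.3 TPM in vehicle and 10.99, 7.69 and 12.6 TPM in LPS. Every LPS library lay below every vehicle library, and the mean fell to 24.8% of the vehicle mean (log2 fold change -1.93, SE 0.134, adjusted p = 1.79e-09). P2rx4, its neighbour on the chromosome and a channel found largely on lysosomes, read 332, 308 and 327 TPM in vehicle and 234, 231 and 243 TPM in LPS. These groups did not overlap either, but the change was smaller, -0.45 (SE 0.0482, adjusted p = 3.94e-07). Its size depends on scaling: with median-of-ratios scaling it was -0.14 (adjusted p = 0.0331), and the authors' deposited table gives -0.12 with an adjusted p of 0.0771. As a share of the RNA, P2rx4 thus changed by -0.45 where the median gene stood at -0.29.

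Among the P2Y receptors, P2ry6 moved most. It read 173, 171 and 178 TPM in vehicle and 25.8, 22.9 and 37.9 TPM in LPS, so the LPS mean was 16.6% of the vehicle mean, and no LPS library came near a vehicle library. Its log2 fold change was -2.58 (SE 0.119, adjusted p = 9.62e-12). P2ry2, the gene next to P2ry6 on chromosome 7, went the other way, from 14.6, 16.4 and 14.3 TPM to 22.2, 24.6 and 20.7 TPM. All 3 LPS libraries were above all vehicle libraries (0.55, SE 0.0900, adjusted p = 4.44e-05), and the difference was 0.84 with median-of-ratios scaling.

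P2ry13 and P2ry14 lie on chromosome 3 within the span of Med12l, which was at 0.0729 to 0.131 TPM in these vehicle libraries and 0.00854 to 0.0306 TPM in LPS. P2ry14 read 10.4, 10.9 and 11.5 TPM in vehicle and 10.1, 9.28 and 7.59 TPM in LPS, with a log2 fold change of -0.26 (95% confidence interval -0.65 to 0.12, adjusted p = 0.207). With median-of-ratios scaling that value was 0.02, so no direction is given for P2ry14. P2ry13 stayed between 1.13 and 1.59 TPM in all 6 libraries (0.12, -0.20 to 0.43, adjusted p = 0.494). For both genes the vehicle and LPS ranges lay next to each other without overlap, and neither difference passed the test.

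Entpd1, the enzyme that clears ATP, read 94.6, 91.0 and 103 TPM in vehicle and 22.6, 23.5 and 28.1 TPM in LPS. The LPS mean was 25.7% of the vehicle mean, with no overlap (log2 fold change -1.92, SE 0.0850, adjusted p = 5.53e-12). Control LPS replicate 4 was the highest of the control LPS libraries for Entpd1, P2rx7, P2ry6 and P2rx4. It was the lowest for Adora2a, Adora2b and P2ry2, so it moved less than the other control LPS libraries for these 7 genes. Without it the 7 genes called were called in the same direction. Some markers of other cells moved along with LPS: the 4 platelet markers summed to 142 to 168 TPM in control vehicle and 346 to 432 TPM in control LPS, nearly all of it Pf4, with Gp1bb at 0. Dendritic cell markers (6 listed) summed to 0.219 to 0.381 and 1.25 to 1.99 TPM, with Cd209a at 0, and the 9 neutrophil markers overlapped between the groups, at 66.8 to 128 and 86.7 to 139 TPM, with Elane at 0. The 8 macrophage markers summed to 13828 to 14391 TPM in control vehicle and 15135 to 15783 TPM in control LPS, with members on both sides. Cd14 (mean 276 in vehicle and 1678 TPM in LPS), Adgre1 (945 and 1549) and Csf1r (939 and 1133) were higher in LPS, Cd68 (2261 and 1634), Itgam (342 and 261), Fcgr1 (91.0 and 30.5) and Mertk (26.7 and 4.89) were lower, and Lyz2 overlapped. Their part in the result was not tested.

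**Figure D2:**
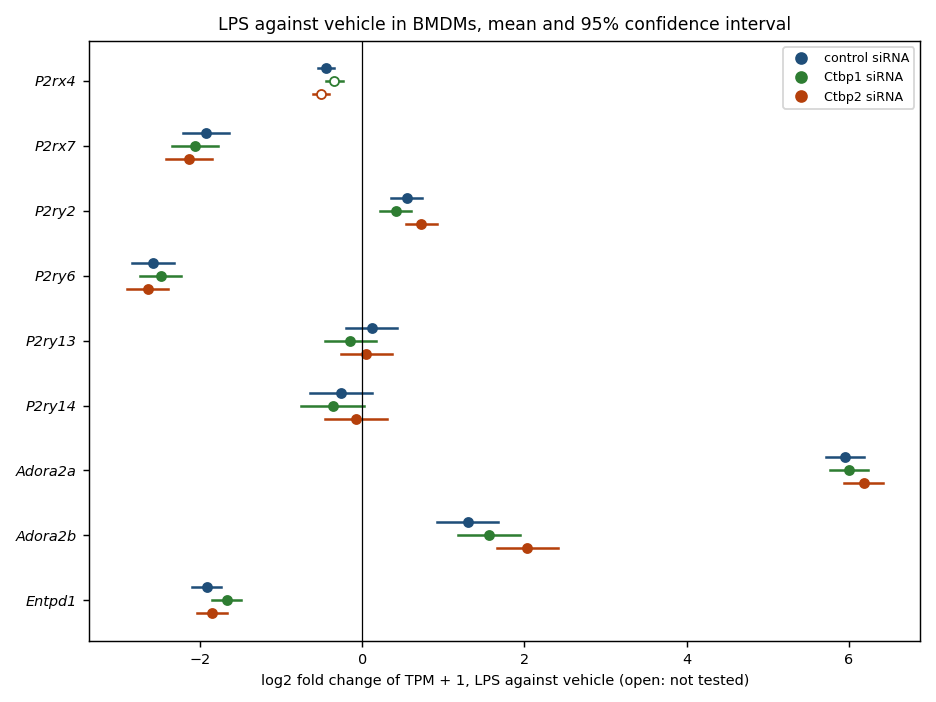
Log2 fold change of TPM + 1 with LPS against vehicle (x axis) for each gene in the control, Ctbp1 and Ctbp2 siRNA arms. Bars are 95% confidence intervals from limma. Open points (P2rx4 in the Ctbp1 and Ctbp2 siRNA arms) were not tested. Their intervals rest on libraries that P2rx4 was chosen by and are not read as tests. Adora2a lies near 6 in all arms, Adora2b between 1.30 and 2.04, and P2ry6, P2rx7 and Entpd1 between -2.65 and -1.67.

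Each siRNA arm had its own vehicle libraries, so LPS could be compared within each. Of the 8 genes tested there, Adora2a, Adora2b and P2ry2 were called higher and P2rx7, P2ry6 and Entpd1 lower in the Ctbp1 siRNA arm (70.5% of all genes called, 19.4% higher and 51.1% lower) and in the Ctbp2 siRNA arm (73.9% called, 18.6% higher and 55.3% lower). With median-of-ratios scaling the split over all genes was 4004 higher and 3881 lower with Ctbp1 siRNA and 4145 higher and 4076 lower with Ctbp2 siRNA. Adora2a rose by 6.00 with Ctbp1 siRNA and 6.18 with Ctbp2 siRNA on the log2 scale. With vehicle levels near 0 these sizes depend on the pseudocount: they were 8.76 in both arms with 0.1, and 3.84 and 4.02 with 5. Adora2a was testable only through LPS libraries, so its calls in these arms are not read as results either. P2ry6 stood at -2.49 and -2.65, P2rx7 at -2.06 and -2.14, and Entpd1 at -1.67 and -1.86. Adora2b stood at 1.56 and 2.04, and P2ry2 at 0.41 (0.68 with median-of-ratios scaling) and 0.73, with the larger value in the Ctbp2 siRNA arm for both. P2ry13 and P2ry14 were not called in either arm (adjusted p = 0.388 and 0.083 with Ctbp1 siRNA, 0.773 and 0.713 with Ctbp2 siRNA), but P2ry14 with Ctbp1 siRNA was called lower without Ctbp1 siRNA LPS replicate 4 (-0.49, adjusted p = 0.0423). P2rx4, described only, had -0.35 and -0.51, and -0.06 and -0.17 with median-of-ratios scaling.

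Summed by class, the makeup of the 8 receptors differed between vehicle and LPS. In control siRNA cells the P2X sum went from 364 ± 17.1 to 246 ± 8.24 TPM and the P2Y sum from 201 ± 3.29 to 61.7 ± 4.93 TPM. The adenosine receptors went from 4.24 ± 0.487 to 85.0 ± 15.1 TPM. Their share of the 8 receptors was 0.641% to 0.852% in the vehicle libraries and 17.3% to 23.8% in the LPS libraries. In LPS the share was 18.6% to 21.3% with Ctbp1 siRNA and 25.1% to 28.2% with Ctbp2 siRNA. P2rx4 makes up most of this total, and its difference between these siRNA libraries is the value the genes were chosen by, so nothing is read from the order of these shares. These sums add transcripts of receptors with different ligands and are given without a test.

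**Figure D3:**
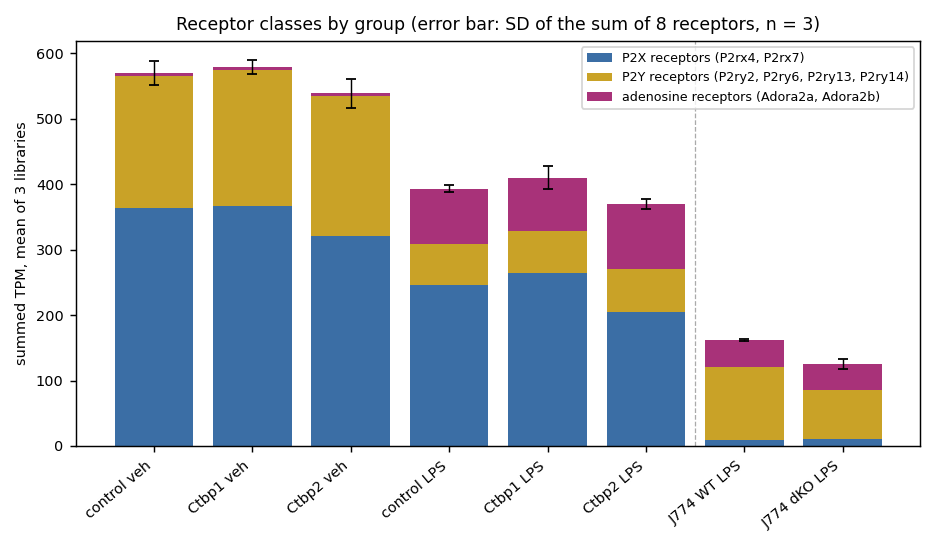
Summed TPM of the P2X, P2Y and adenosine receptors (stacked bars, means of 3 libraries) in the 6 BMDM groups and, right of the dashed line, the 2 J774.1 groups; error bars are the SD of the sum of the 8 receptors. The adenosine part goes from 4.24 to 85.0 TPM with LPS in control siRNA cells while the P2Y part goes from 201 to 61.7 TPM.

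The siRNA comparisons asked which of these transcripts depend on CtBP1 or CtBP2. P2rx4 read lowest with Ctbp2 siRNA in both treatments, and Adora2b rose with Ctbp2 siRNA in LPS, while with Ctbp1 siRNA none of the genes tested was called. In LPS, P2rx4 read 202, 191 and 196 TPM with Ctbp2 siRNA, 269, 245 and 253 TPM with Ctbp1 siRNA and 234, 231 and 243 TPM with control siRNA. The 3 ranges did not overlap: Ctbp2 siRNA libraries were lowest, control libraries in between and Ctbp1 siRNA libraries highest. The log2 difference was -0.38 for Ctbp2 against Ctbp1 siRNA, -0.26 for Ctbp2 siRNA against control and 0.11 for Ctbp1 siRNA against control. The last 2 share the control libraries. The contrast of the siRNAs called 3.59% of all genes, and it is the one by which P2rx4 was noticed, so it is given as a description.

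Vehicle libraries were not part of that choice, but the tests below take their spread from all 18 BMDM libraries, including those used for it. In vehicle P2rx4 read 291, 258 and 293 TPM with Ctbp2 siRNA, 326, 322 and 327 TPM with Ctbp1 siRNA and 332, 308 and 327 TPM with control siRNA. The Ctbp2 siRNA libraries were again all below the others, while Ctbp1 siRNA and control libraries overlapped. The difference from control was -0.20 (95% confidence interval -0.30 to -0.10; unadjusted p = 0.000763), but over all genes the adjusted p was 0.0835, so it was not called. Against Ctbp1 siRNA it was -0.21 (-0.32 to -0.11, adjusted p = 0.0645), also not called. This second comparison passed with a minimum of 10 TPM (adjusted p = 0.0437) and without control LPS replicate 4 (0.0472). Neither comparison passed with median-of-ratios scaling (0.262 against control and 0.173 against Ctbp1 siRNA) or in fits of the 6 libraries alone (0.213 and 0.165). With 1 library left out, the adjusted p was 0.0631 to 0.246 against control and 0.0472 to 0.198 against Ctbp1 siRNA. The authors' deposited table gives -0.15 against control in vehicle (adjusted p = 0.153). With Ctbp1 siRNA in vehicle the difference was 0.01 (-0.09 to 0.12, adjusted p = 0.981).

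Over the 6 BMDM groups the order of P2rx4 levels from the highest was Ctbp1 siRNA in vehicle, control in vehicle, Ctbp2 siRNA in vehicle, Ctbp1 siRNA in LPS, control in LPS and Ctbp2 siRNA in LPS. The first 2 groups overlapped in range, as did the third and the fourth, and the other neighbours did not. The gene next to P2rx4 on the other side from P2rx7, Camkk2, a kinase upstream of AMPK, was at 67.6 ± 2.32, 67.0 ± 3.87 and 69.8 ± 1.25 TPM with control, Ctbp1 and Ctbp2 siRNA in LPS, with overlapping ranges. P2rx7 in LPS read 10.99, 7.69 and 12.6 TPM with control siRNA, 9.02, 8.05 and 10.4 TPM with Ctbp1 siRNA and 8.11, 8.67 and 7.69 TPM with Ctbp2 siRNA, and all 3 ranges overlapped.

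**Figure D4:**
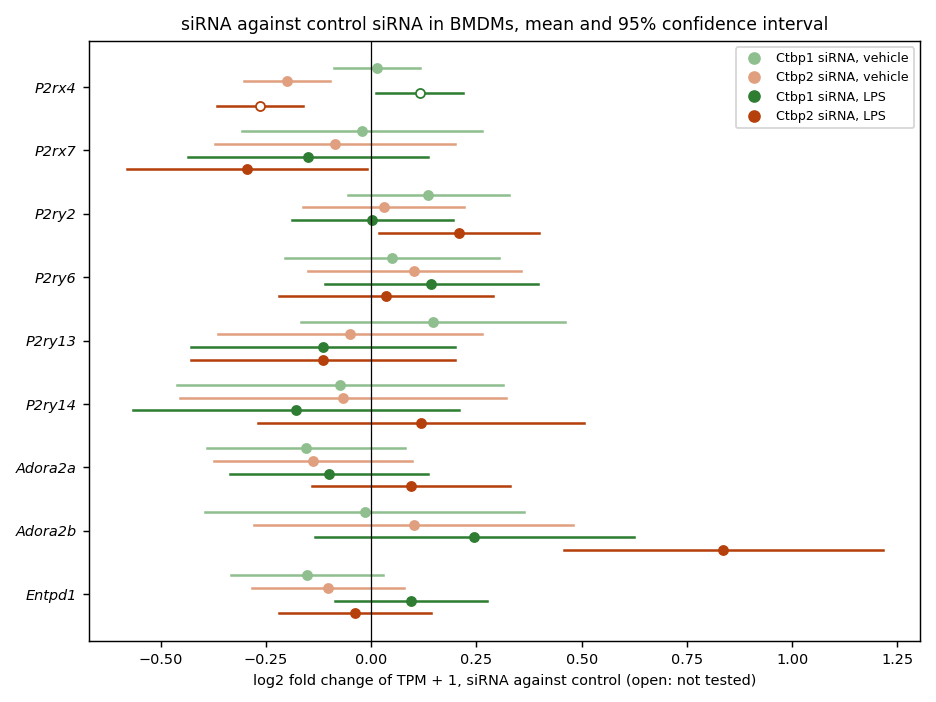
Log2 fold change of TPM + 1 for each siRNA against control siRNA (x axis) in vehicle and in LPS. Bars are 95% confidence intervals from limma before adjustment. Open points (P2rx4 in LPS) were not tested. Their intervals rest on libraries that P2rx4 was chosen by and are not read as tests. Adora2b with Ctbp2 siRNA in LPS lies at 0.84, and P2rx4 lies below 0 with Ctbp2 siRNA in both treatments.

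In vehicle none of the 9 genes was called with Ctbp1 siRNA (0.107% of all genes called) or with Ctbp2 siRNA (0.568%), nor between the siRNAs (0.617%). At an unadjusted p under 0.05, P2rx4 alone passed, in the latter pair of comparisons. Apart from P2rx4, the log2 differences from control in vehicle lay between -0.15 (Adora2a, Ctbp1 siRNA) and 0.15 (P2ry13, Ctbp1 siRNA). Adora2a is near 0 TPM in vehicle, so its value is no bound on its change. Over the alternatives it reached -0.89 with Ctbp1 siRNA and -0.69 with Ctbp2 siRNA, uncalled. The authors' deposited table gives -1.26 and -1.18 (adjusted p = 0.506 and 0.502). The 95% intervals were widest for P2ry14, at -0.46 to 0.31 with Ctbp1 siRNA and -0.45 to 0.32 with Ctbp2 siRNA.

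In LPS, Ctbp1 siRNA called none of the 8 genes tested (0.0576% of all genes called), and none had an unadjusted p under 0.05. Ctbp2 siRNA called 1 of 8, Adora2b, where 1.94% of all genes were called, 63 higher and 173 lower (146 and 77 with median-of-ratios scaling). Adora2b read 12.5, 13.2 and 8.94 TPM with control siRNA, 12.6, 17.6 and 11.6 TPM with Ctbp1 siRNA and 20.5, 26.8 and 17.2 TPM with Ctbp2 siRNA. All 3 Ctbp2 siRNA libraries were above all control libraries, while the Ctbp1 siRNA libraries overlapped with both groups. Adora2b rose by 0.84 with Ctbp2 siRNA (SE 0.179, adjusted p = 0.0259), and the authors' deposited table gives 0.96 (adjusted p = 0.000427). The call was lost without control LPS replicate 4 (log2 fold change 0.68, adjusted p = 0.102) and without Ctbp2 siRNA LPS replicate 1 (0.86, 0.0733) or 3 (0.67, 0.0972). It was also lost, at the same fold change of 0.84, with no filter on low values (adjusted p = 0.0556) and in a fit of the 6 libraries alone (0.22).

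In vehicle Adora2b was not called with Ctbp2 siRNA (0.10, -0.28 to 0.48). The test of whether the effect of Ctbp2 siRNA on Adora2b differed between LPS and vehicle gave 0.73 (0.20 to 1.27, unadjusted p = 0.0103, adjusted p = 0.452), which did not pass. No other gene of the 8 tested passed for either interaction (0% of all genes called for Ctbp1 siRNA by limma, with 762 at an unadjusted p under 0.05, and 0.0329% for Ctbp2 siRNA). With Ctbp1 siRNA the effect on Adora2b in LPS was 0.24 (-0.13 to 0.62, adjusted p = 0.815).

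The remaining members were not called with Ctbp2 siRNA in LPS. P2ry2 read 25.6, 27.3 and 25.5 TPM against 22.2, 24.6 and 20.7 TPM with control siRNA, above it in all 3 libraries (0.21, unadjusted p = 0.0342, adjusted p = 0.244). P2rx7 was at -0.29 (unadjusted p = 0.0434, adjusted p = 0.269), and it was called without control LPS replicate 3, at -0.48 (adjusted p = 0.0405). Adora2a read 82.0, 77.2 and 74.0 TPM with Ctbp2 siRNA and 73.2, 66.6 and 63.6 TPM with Ctbp1 siRNA, and the difference of Ctbp2 siRNA from control was 0.09 (-0.14 to 0.33). The 95% intervals for Ctbp2 siRNA against control were -0.22 to 0.29 for P2ry6 and -0.22 to 0.14 for Entpd1. P2ry6 was called higher with Ctbp1 siRNA only without control LPS replicate 4 (0.35, adjusted p = 0.0322).

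**Figure D5:**
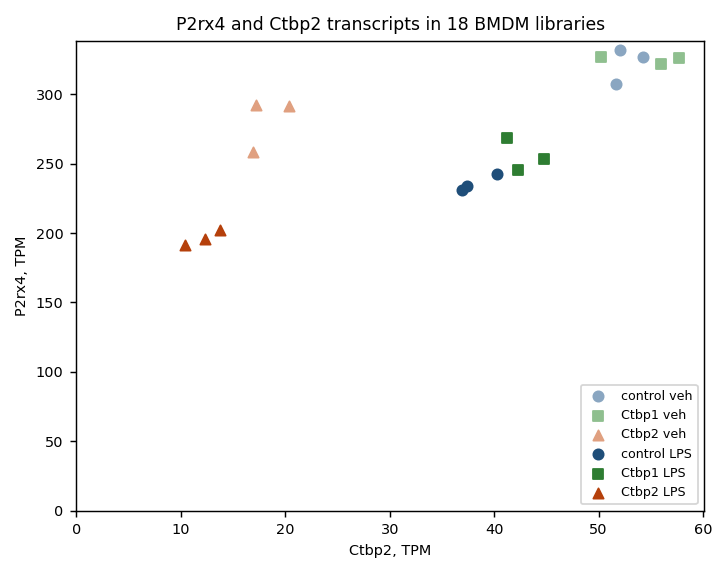
P2rx4 TPM against Ctbp2 TPM in the 18 BMDM libraries, coloured by group. Within vehicle and within LPS, the Ctbp2 siRNA libraries (triangles) are low for both genes, and the LPS libraries lie below the vehicle libraries of the same siRNA.

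By likeness of pattern over the 18 BMDM libraries (Pearson r of log2(TPM + 1) among 7584 genes averaging 10 TPM or more), the 5 genes closest to P2rx4 were Tnks (0.965), Rac1, Arl6ip5, Uggt1 and Wdr7. After the mean of each treatment was subtracted, the closest was Ctbp2 itself (0.919), then Atf1 (0.912), Slc36a1, Scp2 and Cuedc2. Ctbp2 is the siRNA's target, and Atf1 is a cyclic AMP-responsive transcription factor. Atf1 was at 32.6 ± 1.48 TPM with control, 37.3 ± 1.18 TPM with Ctbp1 and 28.5 ± 1.52 TPM with Ctbp2 siRNA in LPS. For Adora2a the closest were Tnfaip2 (0.9998), Nfkbia, Nfkb2, Tnf and Tnip1, a set in which Tnf is a cytokine and Nfkbia the inhibitor of NF-kB. The r values over all libraries follow the LPS step, and for P2rx4 also the siRNA groups. Tnks in LPS, for example, was at 14.4 ± 0.770 TPM with control, 15.6 ± 1.55 TPM with Ctbp1 and 11.6 ± 1.16 TPM with Ctbp2 siRNA. The r values after subtraction follow the siRNA groups. Both rankings for P2rx4 include the LPS libraries in which it was chosen for its difference between Ctbp2 and Ctbp1 siRNA. Genes that share this difference, Ctbp2 among them, thus rank high by construction. All share the same libraries and are given as a description.

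J774.1 cells had another set of receptors. In LPS-treated wildtype cells P2ry6 was first at 102 ± 0.546 TPM and Adora2b second at 41.3 ± 1.06 TPM, ahead of P2ry2 (8.77 ± 0.556 TPM), P2rx4 (7.45 ± 0.427 TPM) and P2rx7 (2.12 ± 0.483 TPM). Adora2a (0.110 to 0.286 TPM), Entpd1 (0.0291 to 0.0826 TPM) and P2ry13 (listed at 0) were near 0, and P2ry14 was listed at 0 in all 6 libraries. In control siRNA BMDMs with LPS, by contrast, P2rx4 was at 236 TPM, Adora2a at 73.4 TPM and Entpd1 at 24.7 TPM, while P2ry6 was at 28.9 TPM and Adora2b at 11.6 TPM. The tables were normalized separately and the cells also differ in strain, sex and transfection, so these levels stand side by side without a test.

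The knockout comparison set the J774.1 cells labelled double knockout against wildtype, both with LPS. Of the 9 genes, 5 reached the mean of 1 TPM needed for a test. P2ry2 and P2ry6 fell and P2rx7 rose, and P2rx4 and Adora2b were not called. That is 3 of 5, where 36.1% of all 11818 genes tested were called, 23% higher and 13.2% lower. The split over all genes was 2713 higher and 1555 lower, and 2202 higher and 2176 lower with median-of-ratios scaling.

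P2ry2 changed most. It read 9.26, 8.16 and 8.88 TPM in wildtype and 2.05, 1.97 and 2.12 TPM in the knockout, so the mean was 23.3% of wildtype and the groups lay far apart (log2 fold change -1.68, SE 0.0887, adjusted p = 5.99e-06). P2ry6 read 102, 102 and 103 TPM in wildtype and 67.4, 79.1 and 71.0 TPM in the knockout, with every knockout library below wildtype (-0.49, SE 0.0571, adjusted p = 0.000423). With a pseudocount of 5 the value for P2ry2 was -0.97. The authors' deposited table gives -2.17 for P2ry2 and -0.58 for P2ry6.

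P2rx7 read 2.57, 1.61 and 2.19 TPM in wildtype and 3.00, 3.05 and 3.74 TPM in the knockout, higher in all 3 libraries but at a low level (0.46, SE 0.148, adjusted p = 0.0467). This call was lost when any of 5 libraries was left out in turn (log2 fold changes of 0.33 to 0.50, adjusted p = 0.0708 to 0.142) and held without wildtype replicate 1 (0.0367). It was also lost with median-of-ratios scaling (0.0657) and with no filter on low values (0.0841). With a pseudocount of 5 its fold change was 0.21. The authors' deposited table gives 0.75 for P2rx7 (adjusted p = 3.07e-05). P2rx4 read 7.13, 7.93 and 7.28 and 6.70, 6.65 and 7.21 TPM, which overlap, and its difference of -0.10 had an interval of -0.28 to 0.07 (adjusted p = 0.329). Adora2b, at 42.4, 40.3 and 41.2 TPM in wildtype and 39.1, 42.5 and 37.9 TPM in the knockout, differed by -0.05 (-0.18 to 0.07, adjusted p = 0.481). The upper bound of that interval is below the 0.84 seen with Ctbp2 siRNA in BMDMs, but the difference between the cell systems was not tested.

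Of the genes too low for a test, Entpd1 read 0.0291, 0.0826 and 0.0434 TPM in wildtype and 0.302, 0.262 and 0.209 TPM in the knockout. The knockout libraries were all higher, and the authors' deposited table gives a log2 fold change of 2.89 (adjusted p = 0.0182). Adora2a read 0.232, 0.110 and 0.286 TPM and 0.300, 0.311 and 0.561 TPM, and P2ry13 was listed at 0 in wildtype and at 0.0295, 0.0311 and 0.0602 TPM in the knockout. Med12l, which spans P2ry13, was at 0 to 0.0182 TPM in wildtype and 0.265 to 0.357 TPM in the knockout. Macrophage markers differed with the knockout in both directions. Of the 8, Adgre1, which encodes F4/80 (219.7 to 230.2 TPM in wildtype, 14.7 to 17.4 in the knockout), and Cd14 (1658 to 1701 and 866 to 1013 TPM) were lower in every knockout library. Csf1r (233 and 335 TPM), Cd68 (514 and 614), Itgam (19.4 and 47.7), Fcgr1 (25.4 and 79.8) and Lyz2 (400.1 and 489) were higher in every knockout library, and Mertk was at or near 0. Their sum was 3061 to 3124 TPM in wildtype and 2392 to 2650 TPM in the knockout. Their part in the results was not tested.

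Other genes listed with the system were counted from 4 lists. With LPS in control siRNA BMDMs 72.2% of all genes tested were called, 18.6% higher and 53.6% lower. Counts near these shares are not read as results about the lists. All 3 other receptors tested fell there, against a listed 12. They were the ADP receptors P2ry1, from 6.80 ± 0.304 to 1.49 ± 0.171 TPM (-1.65), and P2ry12 (-1.14), and P2ry10b (-0.49). P2ry10b was listed by its symbol and is not taken here as a nucleotide receptor. The median log2 fold change of the 3 was -1.14 beside -0.29 for all genes. Of 11 nucleotide and nucleoside enzymes tested, 3 rose and 6 fell (median -0.40). The risers were the NAD glycohydrolase Cd38 (3.44), the purine nucleoside phosphorylase Pnp (2.09, to 486 ± 42.0 TPM) and Enpp4, and Entpd6 (-1.03) and Entpd4 (-1.03) fell most. Cd38 (0.138 ± 0.0798 TPM) and Enpp4 (0.824 ± 0.127 TPM) were below 1 TPM in control vehicle. Both reached the minimum for a test through the LPS libraries, so their calls are not read as results, and Pnp is the remaining riser. Nt5e, the enzyme CD73 that turns AMP into adenosine, was at most 0.0778 TPM in any BMDM library.

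Of 10 release and transport genes, 3 rose and 5 fell with LPS (median -0.37). The channel gene Calhm6 went from 3.10 ± 0.935 to 42.1 ± 7.46 TPM (3.40), while the nucleoside transporter Slc29a3 (-1.98) and the vesicular nucleotide transporter Slc17a9 (-1.15) fell. Of 17 signalling genes downstream of these receptors, 5 rose and 11 fell (median -0.24). Beside both counts, 72.2% of all genes tested were called, 18.6% higher and 53.6% lower. Pde4b, which breaks down cyclic AMP, went from 3.90 ± 0.440 to 128 ± 13.3 TPM (4.72, adjusted p = 3.34e-17). The adenylate cyclase Adcy9 (-1.61), which makes cyclic AMP, the phosphodiesterase Pde7b (-1.72) and the phospholipase Plcb2 (-1.82) fell.

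With either siRNA in either treatment, 1 of these listed genes was called against control: Plcb2 fell with Ctbp2 siRNA in LPS, from 10.5 ± 1.89 to 7.10 ± 0.901 TPM (-0.49, adjusted p = 0.0385). The share called over all genes in that comparison was 1.94%, and the 4 lists held 3, 11, 10 and 17 genes tested. The call of Plcb2 is thus near that share and is not read as a result. Alternatives were not run for Plcb2, and the calls over all genes there went from 236 to 4 with only the 6 libraries compared. In the J774.1 knockout 36.1% of all genes tested were called, 23% higher and 13.2% lower. Both other receptors tested there were called higher (Adora3 0.76, P2ry10b 0.59). Adora3 was at 0.610 ± 0.196 TPM in wildtype and 1.75 ± 0.525 TPM in the knockout. It reached the 1 TPM minimum only through the knockout libraries, so its call is not read as a result. Of 9 enzymes, 5 rose, among them the adenosine deaminase Ada, from 3.15 ± 0.0815 to 8.51 ± 0.0421 TPM (1.20). Of 8 release and transport genes, 3 rose, led by Slc29a3 (1.03), and 1 fell, the volume-regulated channel subunit Lrrc8a (-0.62). Of 15 signalling genes, 4 rose and 3 fell, with Plcb2 (1.02) and Adcy7 (0.64) highest and Pde4b (-0.28) lowest. The medians of these 4 lists were 0.68, 0.50, 0.12 and 0.07, beside 0.05 for all genes tested, and the first rests on 2 genes. Since the Plcb2 call in BMDMs is not read as a result, it is not set against the rise of Plcb2 in the J774.1 knockout.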

How the data were processed

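RNA was sequenced from 18 BMDM and 6 J774.1 libraries with an unstranded polyadenylated RNA kit, per the labels' protocols. Salmon 1.9.0 and DESeq2 1.44.0 were used by the authors, per the submitters' processing notes. The BMDM values are gene-level scaled TPM from Salmon on mm39, per the file headers; the J774.1 values are TPM as deposited, and the build used for them is not given in the sources used here. The authors' deposited tables also hold log2 fold changes, p-values and a mean normalized count signal per gene, which were used only where named.

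From TPM, log2(TPM + 1) was computed and limma 3.58.1 (R 4.3.3, moderated with a mean trend and robust variance) was fitted on genes averaging 1 TPM or more, once over the 18 BMDM libraries with 1 term per group and once over the 6 J774.1 libraries. The minimum is low because receptor transcripts are scarce, and 10 TPM was an alternative. P-values were adjusted by Benjamini-Hochberg over all genes tested, in 11 comparisons, with a threshold of 0.05. Both fits were tested on simulated data. TPM keeps no depth, so no count test was possible on these values. For J774.1, 190 gene identifiers were repeated (P2ry14 among them) and counted once. P2rx7 shares 1.99% of its exon bases with Mir8115, and reads there cannot be told apart.

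The 9 genes, the pathway lists and the marker lists were chosen with earlier results of these data known. All 9 genes are described. From each pathway list, up to 4 called genes with the largest change per comparison could be named, with the neighbouring genes and the 5 most alike in pattern; Nt5e and Camkk2 were named after their values were seen. The alternatives were pseudocounts of 0.1 and 5, a minimum of 10 TPM or none, median-of-ratios scaling, a term for replicate number, plain variance moderation, each library left out, and only the 6 libraries compared.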

Additional observations from a re-analysis of the deposited data

How the results depend on the processing

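TPM gives no depth, so counting error behind low values such as P2ry13 is unknown. Over the alternatives run, no called gene changed sign. The sign changed for 30 differences of single genes, each uncalled as reported and under the alternative that changed its sign, P2ry14 with LPS in control cells among them. With Ctbp2 siRNA in LPS the count of 1 called gene (Adora2b) became 0 with a minimum of 10 TPM, where Adora2b was not tested, 0 with no filter, 0 with only the 6 libraries compared, and 0 to 2 with 1 library left out (0 without Ctbp2 siRNA LPS replicate 1 or 3 or control LPS replicate 4, 2 without control LPS replicate 3). Between Ctbp2 and Ctbp1 siRNA in vehicle the count of 0 became 1 (P2rx4) with a minimum of 10 TPM (adjusted p = 0.0437), and 0 to 1 with 1 library left out (0.0472 without control LPS replicate 4). With Ctbp1 siRNA in LPS it was 0 to 1 with 1 library left out, P2ry6 without control LPS replicate 4. In the J774.1 knockout the count of 3 became 1 (P2ry6) with a minimum of 10 TPM, since fewer genes were tested. The P2rx4 difference between the siRNAs in LPS was -0.29 with median-of-ratios scaling. The cause of the other changes was not tested.

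The replicate numbers were not taken to pair the samples: deviations of same-numbered BMDM libraries correlated at -0.0625 to 0.154 and of J774.1 libraries at -0.002 to 0.0569. With a replicate block, P2rx4 was called lower with Ctbp2 siRNA in vehicle, 1 gene in place of 0 (adjusted p = 0.0133), and against Ctbp1 siRNA in vehicle, 1 in place of 0 (0.00803), while P2rx7 lost its call in the J774.1 knockout (0.0669). Over all genes the block moved the calls with Ctbp2 siRNA from 236 to 414 in LPS and from 69 to 155 in vehicle, and between the siRNAs in vehicle from 75 to 143.

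Other counts over all genes that moved by over 1.5 times were those with Ctbp2 siRNA in LPS (236; 132 with no filter, 4 with only the 6 libraries, 66 to 295 with 1 library left out), Ctbp2 siRNA in vehicle (69; 45 with no filter, 42 with plain moderation, 22 with 6 libraries, 4 to 105 left out) and Ctbp2 against Ctbp1 siRNA in vehicle (75; 49 with plain moderation, 32 with 6 libraries, 25 to 121 left out). With Ctbp1 siRNA they were 7 in LPS (12 with a minimum of 10 TPM, 2 with 6 libraries, 83 without control LPS replicate 4) and 13 in vehicle (7 with plain moderation, 5 to 38 left out). The interactions gave 4 for Ctbp2 siRNA (8 with a minimum of 10 TPM, 0 with no filter, 2 with scaling, 0 to 13 left out) and 0 for Ctbp1 siRNA (2 with a pseudocount of 0.1, 1 with a minimum of 10 TPM, 2 with no filter, up to 4 left out). Median-of-ratios scaling also changed the split into higher and lower calls in vehicle, from 33 and 36 to 48 and 17 with Ctbp2 siRNA, from 1 and 12 to 9 and 10 with Ctbp1 siRNA, and from 41 and 34 to 43 and 23 between them.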
